A study of Mus musculus with 4 samples.

Results

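The cells described here are lung capillary endothelial cells that carry Ntrk2, 1242 of 14854 endothelial cells and of 23723 cells that passed the quality filter. They were proposed as capillary cells near arterioles, marked by Ntrk2 and Gja4, and were picked cell by cell from their own UMIs, the unique molecular identifiers that stand for single captured transcripts. A cell was taken when it held at least 3 UMIs summed over Ntrk2, Sema3c, Gja4 and Wfdc1, with at least 1 of Ntrk2. It had to hold 0 UMIs of the arterial genes Gja5, Bmx, Fbln2 and Sulf1, at most 1 UMI over the aerocyte genes Car4, Ednrb, Fibin, Tbx2, Chst1 and Apln, and 0 UMIs of the cycling genes Mki67 and Top2a. Endothelial cells were those with at least 2 UMIs over Pecam1, Cdh5, Cldn5, Egfl7, Ramp2 and Tie1 and 0 UMIs of Ptprc, Epcam, Col1a1 and Col1a2. The cells are called Ntrk2 capillary cells in what follows, because only Ntrk2 is present in all of them, and the choice itself fixes that.

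Alveolar capillaries of the mouse lung are built from general capillary cells, which renew the capillary bed, and from aerocytes, large Car4-high cells specialised for gas exchange. Ntrk2 encodes TrkB, the receptor tyrosine kinase for brain-derived neurotrophic factor and neurotrophin-4, Gja4 encodes connexin 37, a gap junction protein of arterial endothelium, and Sema3c encodes a secreted class 3 semaphorin, a guidance cue read through neuropilins and plexins. Wfdc1 encodes a secreted protein with a whey acidic protein domain, Tubb2b a beta-tubulin, and Sox17 a SoxF transcription factor that supports arterial identity.

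Single-cell RNA sequencing was done on lung cells of mice, freed of CD45-positive leukocytes and enriched for the endothelial surface protein CD31. There were 4 libraries, 1 per group. One, called sham, was made from wild-type mice that had a sham operation. The others were made on day 7 after PNX, from wild-type mice (called WT PNX) and from the conditional knockouts M3cKO and Foxo1cKO (called M3cKO PNX and Foxo1cKO PNX). PNX commonly stands for pneumonectomy, an operation that takes out lung tissue. The sources used here do not give the gene behind M3, the Cre driver of either knockout, the strain, the age or how many animals went into a library. With 1 library per group there was no spread between animals and no test. All intervals are exact 95% intervals that cover counting error only.

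The libraries held 7617 to 9266 barcodes and 16197681 to 30445999 UMIs, and sham was the shallowest. Sets of 4 values name sham first, then WT PNX, then M3cKO PNX, and Foxo1cKO PNX last. There were 356, 360, 249 and 277 Ntrk2 capillary cells with 691629, 977198, 605762 and 701487 UMIs in all. Their median was 1733, 2353.5, 2151 and 2254 UMIs per cell. Between 68 and 111 barcodes were shared by any pair of libraries, and 0 to 2 of them were Ntrk2 capillary cells in both. Of the Ntrk2 capillary cells, 82, 60, 72 and 31 carried Y-linked UMIs without Xist, and 0, 89, 0 and 80 carried Xist UMIs without Y-linked ones, so WT PNX and Foxo1cKO PNX mixed both kinds. The unit of a level is CPM, counts per 1000000: the UMIs of a gene were summed over the cells of a kind in a library and divided by all UMIs of those cells.

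The 6 proposed marker genes lie on mouse chromosomes 13, 4, 5, 8, 13 and 1 of GRCm38: Ntrk2 at chr13:58806569-59133970 on the plus strand, Gja4 at chr4:127311421-127314039 on the minus strand, Sema3c at chr5:17574281-17730268 on the plus strand, Wfdc1 at chr8:119666365-119688222 on the plus strand, Tubb2b at chr13:34126748-34130466 on the minus strand and Sox17 at chr1:4490931-4497354 on the minus strand (GENCODE M21, whole genes). UMIs were counted per gene, so the values say nothing of exons, and no position in the tissue was measured, since the cells had been dissociated.

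Ntrk2 stood at 798, 696, 655 and 775 CPM in the Ntrk2 capillary cells, as the rule required it to be present. Sema3c stood at 2043, 2202, 1710 and 2341 CPM, Gja4 at 285, 620, 381 and 607 CPM, and Wfdc1 at 372, 283, 368 and 321 CPM. Of the 4 genes of that sum, Sema3c had the highest CPM in each library. The 2 proposed markers that the rule did not use were also present, Tubb2b at 70.8, 191, 109 and 224 CPM and Sox17 at 675, 970, 749 and 1203 CPM. A Gja4 UMI was found in 38.2% of the cells of sham, 70.0% of WT PNX, 53.4% of M3cKO PNX and 69.7% of Foxo1cKO PNX. In pooled Ptprc-positive cells without endothelial UMIs, which should lack Gja4, the share was 1.98%, 1.16%, 0.228% and 1.2% at a median of 1822, 1969, 2424.5 and 2127 UMIs. The Gja4 share of the Ntrk2 capillary cells is raised by the choice, since Gja4 UMIs count toward the 3 that the rule requires. Ntrk2 UMIs were found in 0, 1, 2 and 3 of the 101, 601, 1318 and 749 such cells. A count of 0 in the 101 cells of sham allows up to 3 counts, a share of 2.97% of cells with an Ntrk2 UMI, and limits detection, not expression.

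The cut lay in a continuous range. Cells just inside it, with a sum of 3 UMIs over the 4 genes, numbered 53, 20, 33 and 10 and had 766, 577, 655 and 614 CPM of Ntrk2 and 639, 508, 691 and 1228 CPM of Sox17. Cells just outside it, with Ntrk2 and a sum of 2, numbered 54, 11, 15 and 13 and had 701, 441, 495 and 681 CPM of Ntrk2 and 566, 678, 561 and 2042 CPM of Sox17. By far the most Ntrk2 capillary cells had a sum of at least 4, namely 303, 340, 216 and 267 cells. In 33.1%, 15.8%, 23.7% and 16.2% of the cells Ntrk2 and Sema3c were the only 2 of the 4 genes seen, and all 4 were seen in 17.4%, 32.2%, 26.9% and 35.0%.

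The first question was what these cells share with general capillary cells, arterial cells and aerocytes of the same libraries. Comparison cells were picked by UMIs too: 2790 general capillary cells (0 UMIs of Ntrk2, at least 3 over Gpihbp1 and Plvap, no arterial, venous or lymphatic UMIs), 478 arterial cells (Gja5 or Bmx present) and 2379 aerocytes. These contrasts are close to the one that chose the cells and are given as a description. The Ntrk2 capillary cells looked like general capillary cells in most genes. In all 4 libraries at once, 3 of 3226 genes outside the rules were at least 2-fold higher than in general capillary cells (0.093%) and 0 were at least 2-fold lower (0%). At 1.5-fold the counts were 5 (0.155%) and 3 (0.093%). Taken by library, the genes at least 2-fold higher numbered 11 (0.29%), 17 (0.433%), 36 (0.954%) and 14 (0.352%), and those lower 11 (0.29%), 16 (0.408%), 38 (1.01%) and 19 (0.478%). M3cKO PNX gave the top of both ranges. These comparison cells, unlike the Ntrk2 capillary cells, held no venous UMIs, a difference made by their definition.

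Cdk19, a kinase that pairs with cyclin C in the Mediator complex, differed most steadily. It stood at 361, 523, 241 and 502 CPM in Ntrk2 capillary cells and at 108, 140, 56.1 and 143 CPM in general capillary cells. The ratio was 3.35 (2.78 to 4.04), 3.74 (3.12 to 4.49), 4.29 (3.08 to 6.08) and 3.51 (2.92 to 4.23). Slc6a6, the taurine transporter, stood at 732, 1261, 672 and 1069 CPM against 251, 499, 249 and 520 CPM. Its ratio was 2.91 (2.57 to 3.30), 2.53 (2.29 to 2.80), 2.70 (2.28 to 3.2) and 2.06 (1.85 to 2.29). In both genes, the library with the lowest level in the Ntrk2 capillary cells was M3cKO PNX. Cxcl12, the ligand of Cxcr4 and a product of arterial endothelium, stood at 1903, 1632, 1228 and 2305 CPM against 1096, 823, 594 and 1135 CPM in general capillary cells, and at 3112, 3946, 2358 and 5999 CPM in arterial cells. The Ntrk2 capillary cells thus lay between the other two kinds for this chemokine in each library.

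Smaller differences were seen for Amd1, the decarboxylase that feeds polyamine synthesis, at 54.9, 164, 69.3 and 195 CPM against 30.4, 63.9, 42.1 and 61.3 CPM. Tcim, a small regulator of Wnt and NF-kappaB signalling, stood at 348, 465, 548 and 452 CPM against 235, 304, 304 and 278 CPM. Ass1, argininosuccinate synthase, stood at 82.4, 143, 107 and 131 CPM against 58.2, 101, 62.0 and 91.6 CPM. Each of the 3 was higher in the Ntrk2 capillary cells of every library. The third gene past 2-fold was Nrgn, at 50.6, 277, 52.8 and 155 CPM against 18.7, 133, 7.02 and 55.6 CPM. Of its UMIs in the Ntrk2 capillary cells, 68.6%, 93.0%, 90.6% and 88.1% lay in cells that also held a UMI of the platelet genes Pf4 or Ppbp. Without those cells Nrgn stood at 16.3, 23.3, 5.11 and 19.4 CPM against 12.9, 42.4, 5.90 and 15.8 CPM, so the order of the kinds was no longer the same in every library.

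On the lower side, Lyve1, a hyaluronan receptor, stood at 883, 419, 2351 and 334 CPM against 2141, 888, 3979 and 487 CPM in general capillary cells. Fscn1, an actin-bundling protein, stood at 20.2, 46.0, 61.1 and 57.0 CPM against 53.2, 97.1, 141 and 95.7 CPM. Cyp4b1, a cytochrome P450 listed here with the aerocyte genes, stood at 502, 190, 205 and 268 CPM against 767, 325, 391 and 434 CPM. These 3 genes were lower in the Ntrk2 capillary cells of each library, and so was the adhesion molecule Icam1, at 143, 200, 528 and 151 CPM against 233, 299, 891 and 224 CPM. Plvap, a protein of endothelial fenestrae, stood at 3519, 3427, 2646 and 3602 CPM against 5987, 4995, 4479 and 5223 CPM, but Plvap helped to choose the general capillary cells.

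The genes that define general capillary cells were carried by the Ntrk2 capillary cells. Of 28 listed genes, 22 were measured (at least 20 CPM in either kind of cell in each library). Of these, 1 was at least 1.5-fold higher in all 4 libraries (Cxcl12) and 0 lower, with a median log2 ratio of 0.05. Over all 5968 measured genes, 6 were higher (0.101%) and 5 lower (0.0838%), with a median of -0.02. Cd36, a fatty acid transporter, stood at 3738, 2972, 2517 and 2788 CPM against 3559, 2947, 2161 and 2637 CPM, and Hpgd, which degrades prostaglandins, at 2047, 2427, 1902 and 1980 CPM against 1817, 2000, 1464 and 1751 CPM. Both were slightly higher in the Ntrk2 capillary cells of every library. Kit, the receptor of stem cell factor, stood at 778, 952, 708 and 787 CPM against 756, 911, 677 and 896 CPM, and Aplnr, the apelin receptor, at 334, 309, 106 and 211 CPM against 345, 353, 126 and 267 CPM. Scn7a, a sodium channel, reached 1376, 2217, 1372 and 2043 CPM against 989, 1667, 869 and 1802 CPM.

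The arterial list gave a mixed picture. Of 37 listed genes 20 were measured, 1 was higher (Cxcl12) and 0 lower, with a median log2 ratio of 0.10. Of the defining arterial genes outside the rule, Dkk2 and Gkn3 had 0 UMIs in the Ntrk2 capillary cells of any library, while arterial cells held 121, 65.8, 65.2 and 63.6 CPM of Dkk2, a Wnt antagonist. Cytl1, a secreted cytokine-like protein, stood at 4.34, 2.05, 0 and 0 CPM against 804, 450, 391 and 377 CPM in arterial cells. Mgp, matrix Gla protein, stood at 13.01, 70.6, 8.25 and 19.96 CPM against 6409, 5755, 8453 and 3714 CPM. Dkk2, Gkn3 and Cytl1 were thus at or near 0 in the Ntrk2 capillary cells, while Mgp reached 70.6 CPM in WT PNX, with 69 UMIs in 35 cells and 18 of them in 1 cell.

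Genes of the arterial programme with higher levels in capillaries were split. Efnb2, the arterial ephrin ligand, stood at 1430, 1109, 880 and 1242 CPM against 1326, 1028, 961 and 1055 CPM in general capillary cells. Clu, a secreted chaperone, stood at 265, 147, 236 and 154 CPM against 223, 143, 164 and 120 CPM, and at 1063, 502, 945 and 467 CPM in arterial cells. Clu, Cxcl12, Stmn2, Ptprr and Fbln5 lay between general capillary and arterial cells in 4 of 4 libraries, although Ptprr and Fbln5 were low. Of the listed venous genes, Bst1, Amigo2 and Cpe did so too. Fbln5 stood at 14.3, 53.0, 62.4 and 167 CPM in Ntrk2 capillary cells with a UMI of Vwf, Slc6a2, Selp, Ackr1 or Nr2f2. In the rest it stood at 6.22, 17.2, 3.32 and 13.7 CPM. Clu and Cxcl12 too were higher with such a UMI in each library, and Stmn2 only in M3cKO PNX. Cxcl12 stood at 1999, 1921, 1446 and 2704 CPM with such a UMI and at 1861, 1435, 1008 and 2155 CPM without. The Cxcl12 levels without it still lay between those given above for general capillary and arterial cells. The general capillary cells held no such UMI by definition. Sox17 and its relative Sox7 were above general capillary and arterial cells: Sox17 stood at 574, 855, 648 and 988 CPM in general capillary cells and at 246, 287, 413 and 425 CPM in arterial cells. The ratio of Sox17 to general capillary cells was small, 1.18 (1.05 to 1.31), 1.14 (1.04 to 1.24), 1.16 (1.02 to 1.31) and 1.22 (1.11 to 1.33). Against this, Dll4, a Notch ligand of arterial and tip cells, stood at 233, 211, 188 and 248 CPM against 340, 323, 274 and 269 CPM, and Hey1, a Notch target, at 269, 306, 309 and 324 CPM against 394, 325, 343 and 342 CPM. Both were lower than in general capillary cells in each library. Jag2, another Notch ligand, was higher in each, at 60.7, 83.9, 130 and 98.4 CPM against 50.6, 57.7, 76.0 and 63.8 CPM. Of the 13 measured Notch genes 0 were 1.5-fold higher and 0 lower in all 4 libraries, with a median log2 ratio of -0.14.

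The other genes of the Ntrk2 pathway did not stand out. None of the ligands was seen in quantity: Ntf3 and Ntf5 had 0 UMIs in the Ntrk2 capillary cells, and Bdnf 0, 0, 0 and 1 UMIs. Ntrk3 and Ngfr, other neurotrophin receptors, had 0 UMIs. Of 38 listed adaptors and effectors of TRK signalling, 31 were measured, 0 were higher and 0 lower, with a median log2 ratio of 0.01. Plcg1, the phospholipase that binds TrkB, stood at 92.5, 91.1, 95.7 and 101 CPM against 102, 121, 76.0 and 112 CPM in general capillary cells. Of the other connexins, Gjc1 (connexin 45) stood at 49.2, 84.9, 80.9 and 84.1 CPM against 41.0, 69.1, 84.2 and 63.8 CPM, and Gja1 (connexin 43) had 0, 4, 0 and 4 UMIs. Nrp1, a coreceptor of class 3 semaphorins, stood at 494, 454, 253 and 476 CPM against 463, 428, 220 and 462 CPM. Of 21 measured tip cell and sprouting genes 0 were higher and 1 lower, with a median of -0.22. That gene was Esm1, a proteoglycan of tip cells, at 5.78, 21.5, 0 and 9.98 CPM against 41.0, 32.4, 45.6 and 34.3 CPM. Kdr, the main VEGF receptor, stood at 610, 627, 355 and 696 CPM against 725, 891, 551 and 863 CPM, lower in each library. Over all 35 lists, which also cover BMP and TGF-beta signalling, shear stress, junctions, matrix and lipid handling, Cxcl12, Cyp4b1 and Esm1 were the only members past 1.5-fold in all 4 libraries.

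Levels of the 4 genes in the UMIs that chose the cells are fixed by the choice, so each UMI was put at random in 1 of 2 equal parts, the cells were chosen by the same rule on part 1, and levels were read in part 2. This picked 192, 259, 135 and 212 Ntrk2 capillary cells. In the unused part, Ntrk2 stood at 444, 488, 434 and 570 CPM, against 94.0, 110, 113 and 93.2 CPM in general capillary cells, 0, 7.20, 72.4 and 8.30 CPM in arterial cells and 17.5, 34.5, 31.3 and 49.3 CPM in aerocytes. Ntrk2 was thus seen again in UMIs the rule had not read, at less than the 1236, 1018, 904 and 1086 CPM of the part that chose the cells. Sema3c stood at 2019, 2274, 1944 and 2354 CPM against 1138, 1482, 1195 and 1949 CPM in general capillary cells. Gja4 stood at 387, 583, 434 and 537 CPM against 202, 403, 262 and 449 CPM, and Wfdc1 at 363, 285, 364 and 307 CPM against 211, 210, 211 and 247 CPM. All 4 genes were higher than in general capillary cells in each library, and for Sema3c, Gja4 and Wfdc1 the smallest differences were in Foxo1cKO PNX. Gja4 in arterial cells was 412, 535, 241 and 655 CPM, below the Ntrk2 capillary cells in WT PNX and M3cKO PNX and above them in the other two. Arterial cells chosen on part 1 numbered 52, 104, 14 and 148, and on all UMIs 97, 149, 22 and 210. Their levels in M3cKO PNX, and the order for Gja4 there, thus rest on few cells.

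**Figure D1:**
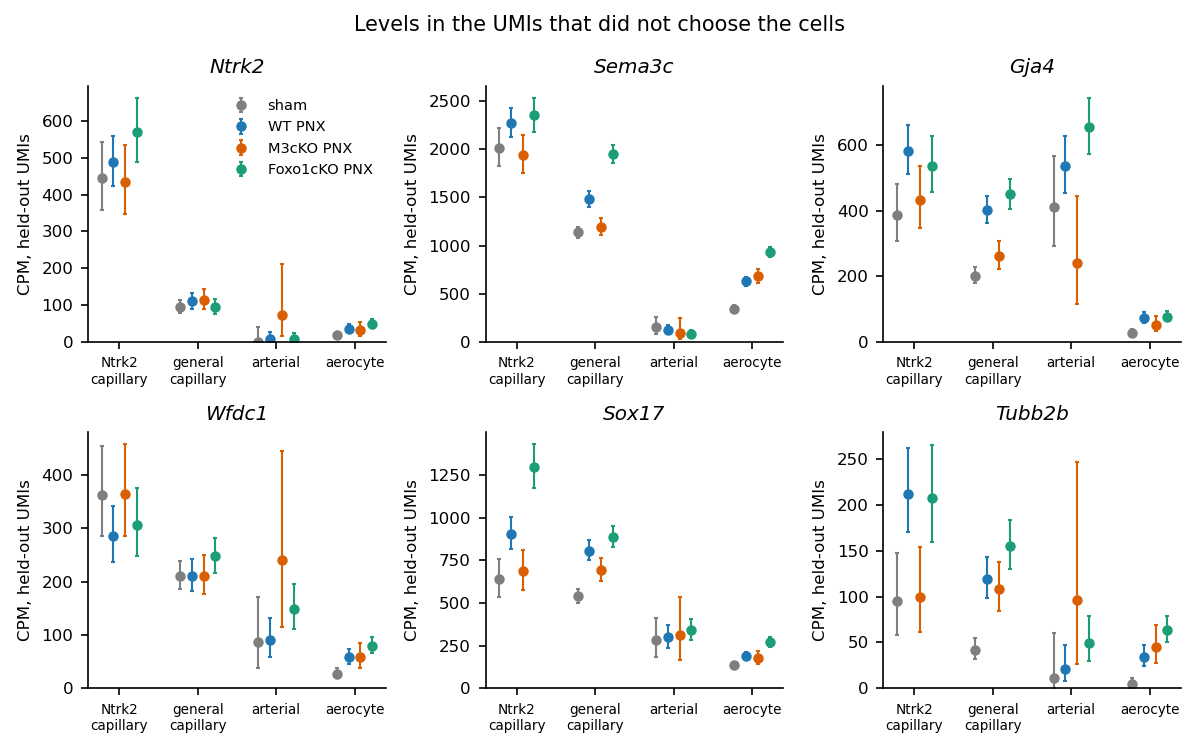
Levels in CPM of Ntrk2, Sema3c, Gja4, Wfdc1, Sox17 and Tubb2b by library, read in the UMIs that did not choose the cells, for Ntrk2 capillary, general capillary, arterial and aerocyte cells; bars are exact 95% Poisson intervals. Ntrk2 stands at 434 to 570 CPM in Ntrk2 capillary cells and at 93.2 to 113 CPM in general capillary cells.

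Genes outside the rule were also read in the unused UMIs. The rule reads their UMIs in neither part, so for them this is no independent check. Cdk19 stood at 520, 547, 319 and 623 CPM against 100, 149, 61.5 and 149 CPM in general capillary cells, and Slc6a6 at 754, 1166, 768 and 1217 CPM against 243, 487, 233 and 541 CPM. Cxcl12 stood at 1928, 1525, 1077 and 2186 CPM against 1062, 979, 607 and 1330 CPM. Each was higher in the Ntrk2 capillary cells of every library. Sox17 stood at 640, 905, 688 and 1299 CPM against 542, 807, 695 and 886 CPM, and Tubb2b at 95.5, 212, 99.7 and 208 CPM against 41.9, 119, 109 and 155 CPM. These 2 proposed markers were higher than in general capillary cells in sham, WT PNX and Foxo1cKO PNX, and not in M3cKO PNX.

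Capillary cells were then sorted by their Ntrk2 UMIs alone, without Sema3c, Gja4 or Wfdc1, among endothelial cells that met the arterial, aerocyte and cycling limits. Cdk19 stood at 117, 297, 240 and 739 CPM in cells of sham with 0, 1, 2 and at least 3 Ntrk2 UMIs, and at 148, 389, 474 and 844 CPM in WT PNX. In M3cKO PNX the steps were 55.4, 176, 244 and 388 CPM and in Foxo1cKO PNX 144, 301, 575 and 802 CPM. Cdk19 was thus highest where Ntrk2 was highest in every library. Slc6a6 stood at 253, 626, 612 and 993 CPM in sham and at 423, 1027, 1117 and 1814 CPM in WT PNX, so it was higher already at 1 Ntrk2 UMI. Lyve1 ran the other way, at 2752, 1075, 1053 and 317 CPM in sham and 1335, 606, 358 and 269 CPM in WT PNX, and Icam1 at 374, 209, 120 and 73.9 CPM in sham.

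The cells with 0 Ntrk2 UMIs include other kinds: Vwf, a venous and arterial protein, stood at 1679 CPM in them in sham and at 116 CPM in cells with at least 3. The steps were therefore repeated in cells with 0 UMIs of 8 venous and lymphatic genes. There Cdk19 stood at 155, 315, 281 and 832 CPM in sham and at 156, 406, 436 and 803 CPM in WT PNX, and Sox17 at 600, 631, 692 and 766 CPM in sham and at 903, 1039, 1456 and 1394 CPM in Foxo1cKO PNX. Gja4 stood at 221, 194, 271 and 528 CPM in sham and at 380, 587, 577 and 787 CPM in WT PNX. It stood at 263, 327, 351 and 333 CPM in M3cKO PNX and at 395, 539, 629 and 600 CPM in Foxo1cKO PNX, where the top class was not the highest. The top classes held only 35, 48, 18 and 47 cells. Lyve1 stood at 1906, 986, 805 and 304 CPM in sham and at 798, 435, 373 and 363 CPM in WT PNX. In these libraries Cdk19, Sox17 and Gja4 were higher and Lyve1 lower in the top class than in cells without Ntrk2, with Gja4 in sham higher only from 2 Ntrk2 UMIs on. Median UMIs per cell moved with the step too, from 1530 to 1678 in sham and from 1493 to 2513.5 in M3cKO PNX, and their part in the result was not tested.

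**Figure D2:**
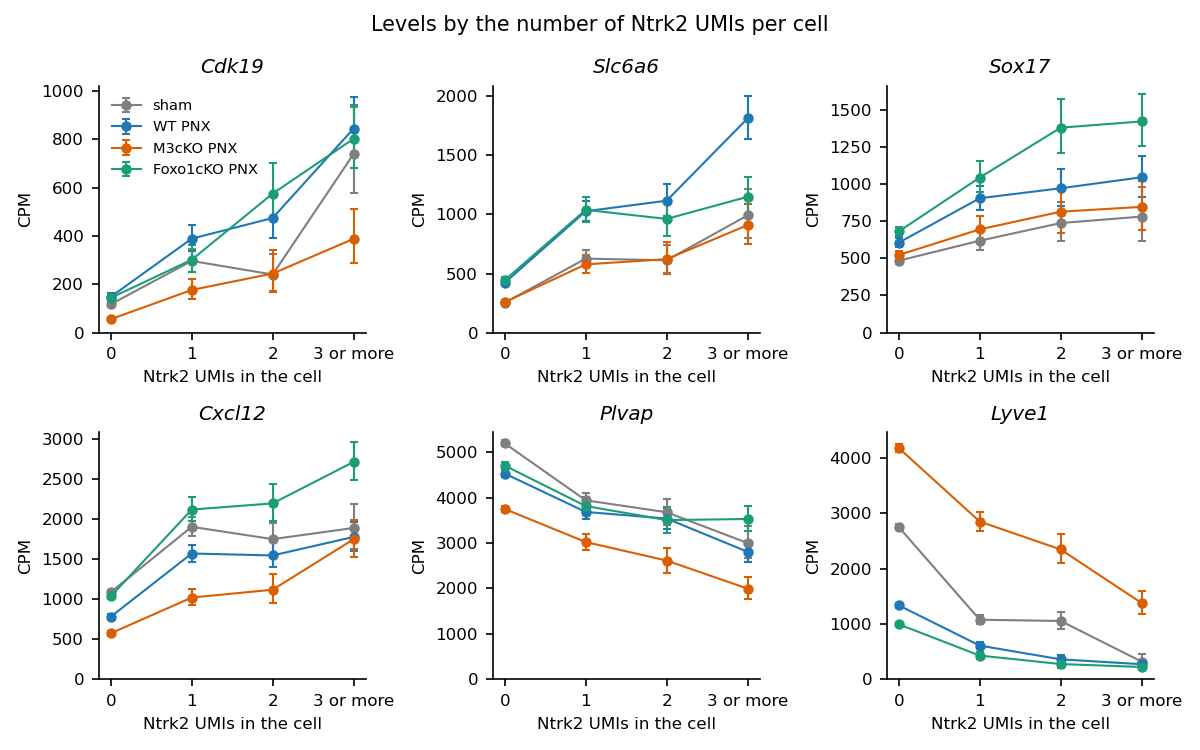
Levels in CPM of Cdk19, Slc6a6, Sox17, Cxcl12, Plvap and Lyve1 in endothelial cells with 0, 1, 2 and at least 3 Ntrk2 UMIs, 1 line per library, with exact 95% Poisson intervals; arterial, aerocyte and cycling cells are left out by the rule. Cdk19 stands at 117 CPM with 0 and 739 CPM with at least 3 Ntrk2 UMIs in sham, while Lyve1 stands at 2752 and 317 CPM.

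Among the Ntrk2 capillary cells, those with a Gja4 UMI numbered 136, 252, 133 and 193 and those without 220, 108, 116 and 84. Slc6a6 stood at 852, 1340, 746 and 1150 CPM with Gja4 and at 650, 1039, 575 and 858 CPM without, and Cdk19 at 415, 567, 296 and 541 CPM against 325, 399, 170 and 398 CPM. Both were higher in the cells with Gja4 in each library. Median UMIs were also higher in the cells with Gja4, 1757.5, 2461, 2254 and 2379 against 1714.5, 2173.5, 1849.5 and 2098, and their part was not tested. A UMI of Vwf, Slc6a2, Selp, Ackr1 or Nr2f2 was found in 101, 138, 110 and 74 of the Ntrk2 capillary cells, most often of Vwf. In those cells Slc6a6 stood at 711, 1399, 703 and 1216 CPM and in the rest at 741, 1167, 640 and 1014 CPM, so the taurine transporter was high in both.

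Clustering placed the Ntrk2 capillary cells among general capillary cells and not in a group of their own. All endothelial cells were clustered by 2000 variable genes with the 36 rule genes left out, into 19 clusters. No correction was made between libraries. Slc6a6, Tubb2b and Cdk19 were among the genes that most set cluster 5 apart. Of its 2558 cells, 1200 were from WT PNX and 1255 from Foxo1cKO PNX. Of the Ntrk2 capillary cells, 37.0% lay in cluster 5, 24.2% in cluster 3, 17.6% in cluster 4 and 11.7% in cluster 7, and general capillary cells were spread over the same clusters at 27.8%, 31.9%, 21.7% and 9.32%. Over all libraries Ntrk2 capillary cells were at most 18.0% of the cells of any of these 4 clusters, and 20.2% of the WT PNX cells of cluster 5. The cluster that held 68.6% of arterial cells held 0.564% of them. Clusters followed the library: 75.6% of the cells of sham lay in cluster 3, 67.2% of WT PNX and 73.6% of Foxo1cKO PNX in cluster 5, and 56.6% of M3cKO PNX in cluster 7. Cluster 4 took 16.9%, 18.1%, 24.1% and 11.9%. With 1 library per group, the library and the group cannot be told apart there.

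Ntrk2 capillary cells were more frequent around each other than in the library at large, with no test of the difference. Of the nearest cells of the same library, 16.7%, 27.5%, 17.9% and 20.9% were Ntrk2 capillary cells, against 7.63%, 9.26%, 10.0% and 7.27% of all endothelial cells. All endothelial cells include other kinds. In the cluster with most of a library's Ntrk2 capillary cells, these made up 12.3%, 20.2%, 14.2% and 16.3% of that library's cells. The excess over that share was smaller. General capillary cells made up 34.2%, 21.5%, 21.6% and 29.5% of the neighbours, against 24.9%, 13.9%, 18.9% and 16.1% of all endothelial cells. Arterial cells made up 0.170%, 0.523%, 0.201% and 1.60%, against 2.08%, 3.83%, 0.883% and 5.51%.

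**Figure D3:**
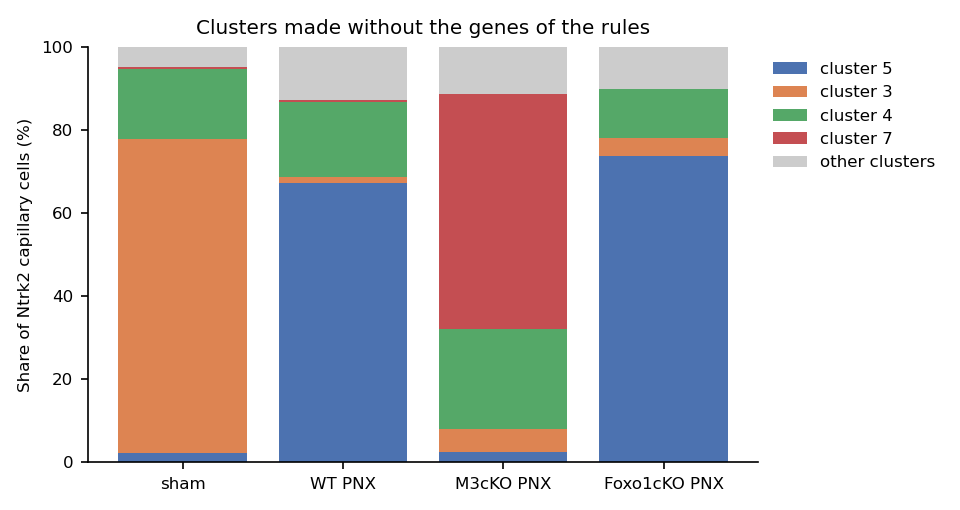
Share of the Ntrk2 capillary cells of each library, in percent, that lay in each cluster of endothelial cells made without the rule genes. Cells of sham sit mainly in cluster 3 (75.6%), those of WT PNX and Foxo1cKO PNX in cluster 5 (67.2% and 73.6%) and those of M3cKO PNX in cluster 7 (56.6%).

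The share of Ntrk2 capillary cells among endothelial cells was 7.63% (6.89 to 8.43), 9.26% (8.37 to 10.2), 10.0% (8.85 to 11.2) and 7.27% (6.46 to 8.14), with exact Clopper-Pearson intervals. The rule needs UMIs, so every endothelial cell was also thinned to 2000 UMIs before it was applied, which left out 2654, 1147, 1197 and 1275 shallower cells. The thinned shares were 5.74% (4.76 to 6.84), 8.81% (7.77 to 9.94), 8.86% (7.36 to 10.6) and 6.71% (5.77 to 7.76). Both measures were lower in sham and Foxo1cKO PNX than in WT PNX and M3cKO PNX. The ratio of WT PNX to sham was 1.21 (1.05 to 1.41), or 1.54 (1.22 to 1.94) after thinning. The cells with at least 2000 UMIs, not thinned, gave shares of 6.41%, 9.01%, 10.3% and 6.82%. Leaving out shallow cells thus already moved the shares of sham and WT PNX apart before any thinning. M3cKO PNX to WT PNX was 1.08 (0.915 to 1.27), within counting error, and Foxo1cKO PNX to WT PNX was 0.785 (0.669 to 0.920). The last ratio was 0.928 when no cell above 5% mitochondrial UMIs was used. The rule also counts UMIs of genes whose levels differed between libraries. In general capillary cells, Gja4 stood at 222 CPM in sham and 424 CPM in WT PNX, and Sema3c at 1185 and 1609 CPM. Their part in the shares was not tested. Without Sema3c in the rule the shares were 3.77%, 6.71%, 6.06% and 5.38%, so M3cKO PNX then lay below WT PNX.

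**Figure D4:**
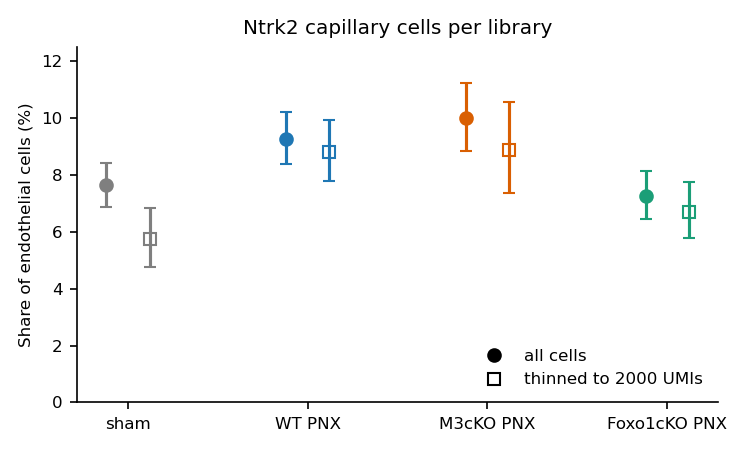
Ntrk2 capillary cells as a percentage of endothelial cells in each library, for all cells and after every cell was thinned to 2000 UMIs, with exact 95% binomial intervals. The shares are 7.63%, 9.26%, 10.0% and 7.27% before thinning and 5.74%, 8.81%, 8.86% and 6.71% after it.

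The targeted gene was read first in the comparison of groups. Foxo1, the forkhead transcription factor deleted in Foxo1cKO, stood at 163, 203, 165 and 79.8 CPM in the Ntrk2 capillary cells and at 198, 219, 174 and 45.0 CPM in general capillary cells. Foxo1cKO PNX had the lowest level, 2.54-fold (1.88 to 3.48) below WT PNX in the Ntrk2 capillary cells and 4.86-fold below in general capillary cells. The sources used here do not name the deleted exons, so UMIs outside them would still be counted. Rhoj, a small GTPase of endothelium that the series' title names, stood at 356, 269, 380 and 245 CPM. Its ratio was 1.41 (1.18 to 1.69) for M3cKO PNX to WT PNX and 0.911 (0.747 to 1.11) for Foxo1cKO PNX to WT PNX. WT PNX enters all 3 comparisons, so a level particular to that library would appear in each of them.

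Gja4, whose UMIs entered the rule, was 2.18-fold (1.85 to 2.57) higher in WT PNX than in sham. In general capillary cells, which were not chosen on Gja4, it stood at 222, 424, 285 and 441 CPM and was 1.91-fold higher in WT PNX. The ratio of WT PNX to sham was 2.70 (1.96 to 3.78) for Tubb2b, 1.44 (1.28 to 1.61) for Sox17 and 1.72 (1.55 to 1.91) for Slc6a6. In M3cKO PNX against WT PNX, Gja4 was 1.63-fold (1.40 to 1.90), Tubb2b 1.76-fold (1.32 to 2.36), Slc6a6 1.88-fold (1.68 to 2.10) and Cdk19 2.17-fold (1.80 to 2.63) lower. Gja4, Tubb2b, Slc6a6 and Sox17 thus had their 2 highest levels in WT PNX and Foxo1cKO PNX. The same held in general capillary cells. In their unused UMIs, Slc6a6 stood at 243, 487, 233 and 541 CPM and Sox17 at 542, 807, 695 and 886 CPM. Cdk19 stood there at 100, 149, 61.5 and 149 CPM. Tubb2b, at 41.9, 119, 109 and 155 CPM, differed little there between WT PNX and M3cKO PNX. Sema3c and Ntrk2 chose the cells, so their levels between groups are set in part by the rule and by depth. Their ratios of WT PNX to sham, 1.08 (1.01 to 1.15) and 0.872 (0.778 to 0.977), are given as a description only.

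The TRK adaptors and effectors were spread around no difference in each comparison. In WT PNX against sham, 6 of 33 measured members were 1.5-fold higher and 3 lower, with a median log2 ratio of -0.01. Among the higher ones was Pik3r1, a regulatory subunit of phosphoinositide 3-kinase, at 83.9 and 136 CPM. In M3cKO PNX against WT PNX, 5 of 32 were higher and 2 lower (median -0.04), and in Foxo1cKO PNX against WT PNX 3 of 31 higher and 2 lower (median 0.01). Of the Notch genes 1 of 14 was higher and 0 lower in WT PNX against sham, 3 of 15 higher and 2 lower in M3cKO PNX and 0 of 14 either way in Foxo1cKO PNX, with medians of 0.19, 0.20 and 0.01. The arterial list gave 7 higher and 3 lower of 23 (median 0.16), 4 and 3 of 23 (median -0.25) and 2 and 1 of 23 (median 0.16). Jag2 was the highest in M3cKO PNX. Over all genes measured by the same 1.5-fold rule, 13.2% were higher and 11% lower in WT PNX against sham. The shares were 11.8% and 19.1% for M3cKO PNX and 7.39% and 7.49% for Foxo1cKO PNX. In general capillary cells, the TRK list gave 4 higher and 1 lower, 2 and 6, and 0 and 2 of 34. The Notch list gave 1 and 0, 1 and 0, and 0 and 0 of 14 there. The arterial list gave 5 and 4 of 22, 3 and 3 of 23, and 2 and 1 of 23.

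**Figure D5:**
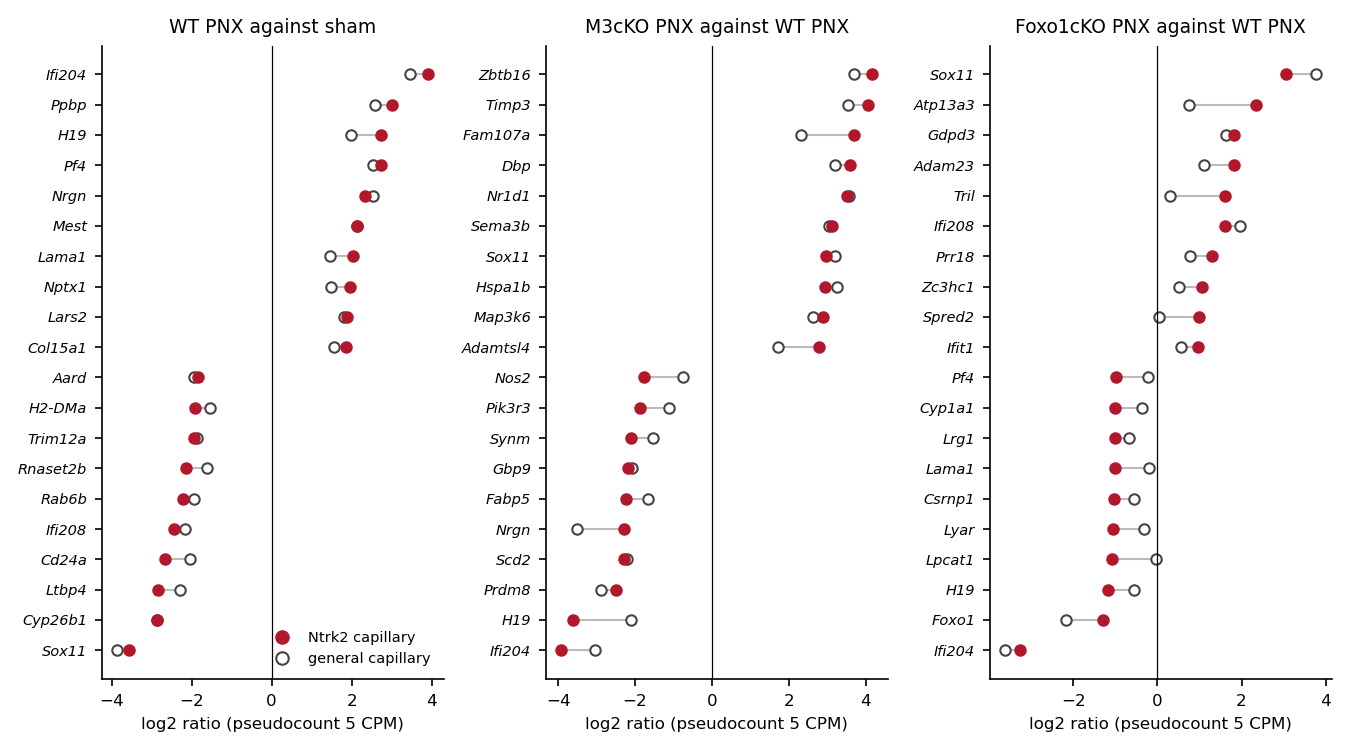
Log2 ratios (pseudocount 5 CPM) of genes in Ntrk2 capillary cells and in general capillary cells for WT PNX against sham, M3cKO PNX against WT PNX and Foxo1cKO PNX against WT PNX, 1 panel each. Sox11 is lower in WT PNX than in sham and higher in either knockout, and Foxo1 is lower in Foxo1cKO PNX.

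After PNX in wild-type mice, 13 of 21 MHC genes were lower in the Ntrk2 capillary cells than after the sham operation, and 8 of 11 S phase genes and 11 of 23 matrix genes were higher. General capillary cells showed shifts of the same kind, given beside each list. Of 3987 genes tested, 96 passed 2-fold on the higher side in WT PNX (2.41%) and 95 on the lower side (2.38%), at 50 CPM and 20 UMIs or more in the higher library. In general capillary cells the counts were 71 (1.79%) and 86 (2.17%) of 3964. H2-Eb1, a beta chain of MHC class II, stood at 998 CPM in sham and 101 CPM in WT PNX, 9.85-fold (7.97 to 12.3) lower. Cd74, the invariant chain, stood at 1019 and 286 CPM, H2-Aa at 1687 and 739 CPM and H2-Ab1 at 1940 and 837 CPM. Of the 21 measured MHC class II and class I genes, 0 were 1.5-fold higher and 13 lower, with a median log2 ratio of -0.98. In general capillary cells 1 was higher and 12 of 21 lower, with a median of -0.82. Over all 7066 genes measured by the same rule, 933 were higher (13.2%) and 774 lower (11%), with a median of 0.02, and over 7089 in general capillary cells 882 (12.4%) and 550 (7.76%), with a median of 0.07. The class I gene H2-D1 went the other way, 5338 and 7755 CPM.

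Among the genes with the largest ratios, Sox11, a SoxC transcription factor of embryonic tissue, stood at 234 CPM in sham and 15.3 CPM in WT PNX, 15.3-fold (8.98 to 27.9) lower, and at 258 and 13.1 CPM in general capillary cells. Cd24a, a glycosylated surface protein, stood at 442 and 65.5 CPM, Cyp26b1, which degrades retinoic acid, at 53.5 and 3.07 CPM, and Ltbp4, a binding protein of latent TGF-beta, at 96.9 and 9.21 CPM. Each was lower in general capillary cells as well, by 4.38-fold, 16.3-fold and 6.05-fold. On the higher side, Mest, an imprinted gene of growing tissue, stood at 39.0 and 189 CPM, 4.85-fold (3.23 to 7.56) higher, and Col15a1, a collagen of the basement membrane zone, at 54.9 and 214 CPM, 3.89-fold (2.74 to 5.66) higher. Lama1, a laminin chain, stood at 11.6 and 62.4 CPM and Nptx1, a secreted pentraxin, at 10.1 and 54.2 CPM. Ifi204, an interferon-inducible DNA sensor, had 0 UMIs in sham and 70.6 CPM in WT PNX. All of these genes went the same way in general capillary cells, which the rule for naming them required.

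Of 23 measured genes of basement membrane and matrix, 11 were higher and 4 lower, with a median log2 ratio of 0.50, and in general capillary cells 8 of 22 were higher and 3 lower, with a median of 0.37. The collagen IV chains Col4a1 and Col4a2 stood at 1868 and 2903 CPM and at 1528 and 2325 CPM, and Sparc, a collagen-binding matrix protein, at 2595 and 4595 CPM. Of 22 tip cell and sprouting genes 11 were higher and 1 lower, median 0.46, and this list shares Col4a1, Col4a2, Sparc and Nid1 with the matrix list. In general capillary cells 7 of 23 were higher and 2 lower, median 0.30. Of 11 S phase genes 8 were higher and 0 lower, median 0.73, with Mcm6 of the replicative helicase at 24.6 and 60.4 CPM and the sliding clamp Pcna at 137 and 210 CPM, in cells that held no Mki67 or Top2a UMI by the rule. In general capillary cells 13 of 14 S phase genes were higher and 0 lower, median 0.90. Of 7 tubulins 3 were higher and 0 lower, and in general capillary cells 4 of 8 and 0. Of 29 interferon genes 1 was higher and 8 lower, median -0.30, and in general capillary cells 1 of 30 and 11, median -0.22. In lipid handling 9 of 22 were higher and 3 lower, but 126 of the 151 UMIs of Scd1 in WT PNX lay in 1 cell. In general capillary cells 10 of 22 were higher and 2 lower.

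Transcripts of other cells also moved with this comparison. Platelet genes summed to 31.8 CPM in sham and 311 CPM in WT PNX, epithelial genes to 418 and 2616 CPM and immune genes to 69.4 and 358 CPM. Most of this lay in few cells: 1733 of 1855 UMIs of Sftpc and 251 of 291 UMIs of Lyz2 in WT PNX were in 1 cell each, and 53 cells of WT PNX against 7 of sham held a Pf4 or Ppbp UMI. Pf4 (13.01 and 115 CPM), Ppbp (17.4 and 174 CPM) and Nrgn (50.6 and 277 CPM) were among the 10 named genes with the largest ratios. The imprinted RNA H19 stood at 10.1 and 96.2 CPM, but 37 of its 94 UMIs in WT PNX lay in 1 cell. Without the cells that carried such transcripts, the counts past 2-fold were 87 higher and 100 lower. The count of lower genes was 57 with at most 5% mitochondrial UMIs, and that of higher genes 158 without Sema3c in the rule and 146 among cells with Y-linked and no Xist UMIs.

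Between M3cKO PNX and WT PNX, 11 of 13 clock genes were higher in the knockout and 7 of 11 S phase genes lower. General capillary cells showed 8 of 12 and 10 of 14. Past 2-fold, 166 of 3980 genes were higher (4.17%) and 178 lower (4.47%). With TMM scaling in place of the UMI totals the split was 221 higher and 121 lower, and with at most 5% mitochondrial UMIs 109 were higher. In general capillary cells 153 were higher (3.85%) and 154 lower (3.88%) of 3973. The median log2 ratio of all genes tested was -0.08.

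Zbtb16, a transcription factor of the BTB zinc finger family, stood at 5.12 CPM in WT PNX and 178 CPM in M3cKO PNX, 34.8-fold (14.5 to 109) higher. Timp3, an inhibitor of matrix metalloproteinases, stood at 188 and 3204 CPM, 17.0-fold (14.6 to 19.9) higher, and at 11.9-fold in general capillary cells. The clock output gene Dbp stood at 4.09 and 104 CPM and the clock repressor Nr1d1 at 12.3 and 193 CPM. Of 13 clock genes 11 were 1.5-fold higher and 2 lower, with a median log2 ratio of 1.80, against 824 higher (11.8%) and 1334 lower (19.1%) of 7000 genes and a median of -0.10. In general capillary cells the clock list had 8 of 12 higher and 1 lower (median 1.17), against 664 (9.39%) and 1374 (19.4%) of 7073 genes. Per1 stood at 44.0 and 165 CPM, and the positive clock factor Arntl at 23.5 and 0 CPM. The time of day of tissue collection was not tested.

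Sox11 stood at 155 CPM in M3cKO PNX, 10.1-fold (5.83 to 18.8) above WT PNX. Of 24 immediate early and heat shock genes 10 were higher and 1 lower, median 0.40, and in general capillary cells 12 of 26 and 1, median 0.39, with the inducible Hsp70 genes Hspa1a at 87.0 and 598 CPM and Hspa1b at 137 and 1096 CPM. Of 24 FOXO factors and targets 10 were higher and 3 lower, median 0.14, and in general capillary cells 11 of 25 and 3, median 0.28. In the Ntrk2 capillary cells Txnip, an inhibitor of thioredoxin, stood at 364 and 966 CPM and Tsc22d3, a glucocorticoid-induced gene, at 91.1 and 386 CPM. Foxo1 itself stood at 203 and 165 CPM, a ratio of 0.815 (0.634 to 1.04). Of 12 venous genes 5 were higher and 0 lower, median 0.52, and in general capillary cells 4 of 10 and 1, median 0.28. In the Ntrk2 capillary cells Icam1 stood at 200 and 528 CPM. Lyve1 was 5.62-fold (5.03 to 6.28) higher.

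Lower in M3cKO PNX were 7 of 11 S phase genes, with 0 higher and a median of -0.79, and in general capillary cells 10 of 14, with a median of -0.75. Of 21 lipid handling genes 9 were lower and 2 higher, median -0.24, and in general capillary cells 11 of 23 and 3, median -0.47, with the desaturase Scd2 at 125 and 21.5 CPM and Fabp5, a fatty acid binding protein, at 72.7 and 11.6 CPM. Scd1 was among the 9 lower genes, and most of its UMIs in WT PNX lay in 1 cell. Of 23 general capillary genes 7 were lower and 1 higher, median -0.35, and in general capillary cells likewise 7 of 23 and 1, median -0.45. Aplnr stood at 309 and 106 CPM, 2.93-fold (2.23 to 3.89) lower, and Bmp6, a ligand that controls iron balance, at 912 and 522 CPM. Prdm8, a histone methyltransferase family member, stood at 89.0 and 11.6 CPM and Nos2, the inducible nitric oxide synthase, at 68.6 and 16.5 CPM. In M3cKO PNX, 84 of 94 Lyz2 UMIs and 55 of 57 Ppbp UMIs were in 1 cell each, and the cells held no Xist UMI, unlike WT PNX. Among cells with Y-linked and no Xist UMIs, 72 in M3cKO PNX and 60 in WT PNX, the named genes kept their sign.

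Of the 3 pairs of groups compared, Foxo1cKO PNX and WT PNX had the fewest genes past 2-fold. Past 2-fold, 14 of 3939 genes were higher in the knockout (0.355%) and 28 lower (0.711%), and in general capillary cells 12 and 12 (0.301% each) of 3981. Sox11 stood at 15.3 CPM in WT PNX and 165 CPM in Foxo1cKO PNX, 10.8-fold (6.27 to 19.9) higher, and 18.6-fold higher in general capillary cells. Adam23, a cell surface protein that binds integrins, stood at 17.4 and 74.1 CPM, Tril, a coreceptor of Toll-like receptors, at 29.7 and 101 CPM, and Spred2, an inhibitor of Ras signalling, at 23.5 and 51.3 CPM. Lower were Csrnp1, a nuclear protein with transcription factor activity, at 283 and 137 CPM, and Lrg1, a secreted glycoprotein of TGF-beta signalling, at 131 and 62.7 CPM. Ifi204 stood at 0, 70.6, 0 and 2.85 CPM over the 4 libraries and so was seen almost only in WT PNX. With at most 5% mitochondrial UMIs the counts were 41 and 67, and among cells with Y-linked and no Xist UMIs 25 and 162.

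Of 24 FOXO factors and targets, 2 were 1.5-fold higher and 2 lower in Foxo1cKO PNX, with a median log2 ratio of 0.02. The higher ones were Foxo4 and Eif4ebp1, and the lower ones Tob1 and Foxo1, the deleted gene itself. In general capillary cells 3 of 24 were higher and 3 lower, median -0.03. Over all 6992 genes 517 were higher (7.39%) and 524 lower (7.49%), with a median of 0.01, and in general capillary cells 401 (5.61%) and 386 (5.4%) of 7145. Of 30 interferon genes 9 were higher and 2 lower, median 0.27, and in general capillary cells 7 of 30 and 1, median 0.25. Ifit1 stood at 53.2 and 108 CPM and Ifi208 at 15.3 and 57.0 CPM, but with at most 5% mitochondrial UMIs both were lower in Foxo1cKO PNX, with log2 ratios of -0.39 and -0.46. Of 8 clock genes 1 was higher and 5 lower, median -0.60, and in general capillary cells 0 of 8 and 2, median -0.31. Of 23 general capillary genes 0 were higher and 0 lower, median -0.12, and in general capillary cells likewise 0 of 23 and 0, median -0.05. Sox18, a relative of Sox17, stood at 274 and 426 CPM, 1.55-fold (1.31 to 1.84) higher. Ntrk2 and Gja4, which entered the rule, had ratios of 1.11 (0.994 to 1.25) and 0.979 (0.863 to 1.11), given as a description only. Atp13a3, a polyamine transporter, stood at 11.3 and 76.98 CPM, and Gdpd3 at 31.7 and 125 CPM, but among cells with Y-linked and no Xist UMIs (60 and 31) both were lower in Foxo1cKO PNX, with log2 ratios of -2.28 and -1.97.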

How the data were processed

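The deposited files hold raw UMI counts per gene and barcode, as the authors deposited them. Mapping to mm10 was done with Cell Ranger, version 2.1.1 per the labels. The submitters' processing notes also name R 3.4.4, and software version 3.0.0 stands in the file headers. The 4 libraries held 34683 barcodes and 32285 genes. Cells were kept with at least 500 genes and at most 10% mitochondrial UMIs. The cells described, the 35 gene lists and the tests were chosen with earlier results of these data known.

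UMIs were summed per library and kind of cell and turned into CPM. Intervals at 95% were exact: Poisson for a level, conditional binomial for a ratio and Clopper-Pearson for a share. With 1 library per group no test was made. A gene was tested at 50 CPM and 20 UMIs in the higher library, and a member of a list was measured when 1 of the libraries reached 20 CPM, and was called higher or lower past 1.5-fold. Named genes were, against general capillary cells, the 15 with the highest and 10 with the lowest ratio nearest to 1 over the libraries. Between groups, the rule took in each direction the 10 largest log2 ratios (pseudocount 5 CPM) past 2-fold that went the same way in general capillary cells, plus Foxo1, Rhoj, the rule genes and up to 4 members of each list. Genes singled out because their UMIs lay in few cells, and the repeat of the Ntrk2 steps without venous and lymphatic UMIs, were chosen after their values were seen. The rule skipped mitochondrial, ribosomal, haemoglobin, immunoglobulin, sex-linked and unnamed model genes, and any gene whose level in non-endothelial cells exceeded that in endothelium more than 5 times. General capillary, arterial and aerocyte comparison cells followed fixed UMI limits. Aerocytes had at least 4 UMIs over the aerocyte genes, and arterial cells at least 3 over the arterial genes. No doublets were removed for the values given; removing the 464, 687, 660 and 608 highest Scrublet scores is an alternative, and Scrublet's own threshold marked 0, 225, 78 and 274.

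The steps were tested on simulated counts, drawn as Poisson counts from the profile of the second library of each comparison. The genes set to change came from above a minimum higher than the 50 CPM of the rule. UMIs gathered in single cells and spread between animals were not simulated, so recovery in the real counts was not measured. With 50 genes set to change 2.5-fold, the 2-fold rule found 45, 48 and 45 for WT PNX against sham, M3cKO PNX against WT PNX and Foxo1cKO PNX against WT PNX (3711, 3842 and 3830 genes), it found 0 of 50 set to 1.5-fold, and 12, 13 and 4 of 3511, 3642 and 3630 unchanged genes. Alternatives were other gene and mitochondrial limits, no Sema3c in the rule, no venous or lymphatic UMIs, cells with Y-linked UMIs only, other CPM minimums, TMM scaling, thinning, doublet removal and removal of cells with carried-along transcripts, the last chosen after seeing the data. Python 3.11.15 with numpy 2.4.6, scipy 1.17.1, pandas 2.3.3, scanpy 1.11.5, anndata 0.12.19, scikit-learn 1.9.0, igraph 0.11.9 and matplotlib 3.10.9 was used. TMM factors, and nothing else, came from edgeR 4.0.16 (R 4.3.3).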

Additional observations from a re-analysis of the deposited data

How the results depend on the processing

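No paired analysis was possible because each group is 1 library. Over the alternatives, 96 summary values stayed within their limits and 30 moved. Of 850 values of named genes 837 kept their sign, but 72 of these moved past their limits, and 13 changed sign. The named genes were picked for large ratios, which makes a change of sign less likely. With at least 1000 genes per cell, 1 gene was 2-fold above general capillary cells in all 4 libraries. With at most 5% mitochondrial UMIs (62, 72, 61 and 71 cells), the share ratio for Foxo1cKO PNX against WT PNX was 0.928, 57 genes were lower in WT PNX than in sham, 109 were higher in M3cKO PNX, 41 were higher and 67 lower in Foxo1cKO PNX, and 1 was above and 2 below general capillary cells. Log2 ratios then turned for H19 (-1.51) in WT PNX against sham and, in Foxo1cKO PNX against WT PNX, for Atp13a3 (-1.25), Ifi208 (-0.46), Ifit1 (-0.39), H19 (5.36) and Lama1 (0.42). Without Sema3c in the rule the share ratios were 1.78 for WT PNX to sham and 0.903 for M3cKO PNX to WT PNX, with 158 genes higher in WT PNX and 33 higher in Foxo1cKO PNX. Without venous and lymphatic UMIs they were 0.911 for M3cKO PNX to WT PNX, with 40 higher in Foxo1cKO PNX and 1 above general capillary cells. With Y-linked UMIs only (82, 60, 72 and 31 cells), 146 were higher in WT PNX, 25 higher and 162 lower in Foxo1cKO PNX, and 1 above general capillary cells. There Atp13a3 (-2.28), Gdpd3 (-1.97), Prr18 (-1.48), H19 (0.026), Lama1 (0.026) and Cyp1a1 (0.81) turned. With a 20 CPM minimum, and likewise with none, since 20 UMIs then decide, 315 were higher and 157 lower in WT PNX, 522 lower in M3cKO PNX, and 63 higher and 149 lower in Foxo1cKO PNX. Thinned, with the shallower cells left out, the share ratio of WT PNX to sham was 1.54. Without cells with carried-along transcripts (chosen after seeing the data), Nrgn turned to -0.10 against general capillary cells. Fewer cells were used under most of these; otherwise the cause was not tested. The 249 to 360 cells per library limit what can be seen: the 50 CPM minimum leaves out rarer transcripts.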
